A study of Rattus norvegicus with 3 samples.

Results

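The peaks described here are those at the starts of 15 rat autosomes: every listed peak of H3K4me3 or H3K9me3 on chromosomes 1, 3 to 6, 10 to 12 and 14 to 20 whose midpoint lies below position 3000000. They numbered 1372 of 57275 listed peaks, 187 of 7684 for H3K4me3 and 1185 of 49591 for H3K9me3. Within these chromosomes they were chosen by position alone, and each was set against all other peaks of the same chromosome. The other autosomes were left out, and peak groups near their starts form separate parts of the series. The 15 are therefore not an unselected set of chromosome starts. The 15 chromosomes spanned 1834 Mb up to their last listed peak, and their first 3 Mb made up 2.45% of that length.

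The study mapped both histone marks by chromatin immunoprecipitation and sequencing (ChIP-seq) in untreated round spermatids from testis of the Sprague-Dawley strain. These haploid cells arise from meiosis and precede the elongation of the sperm nucleus. The 3 libraries were 1 precipitate with a mouse antibody against H3K4me3, 1 with a rabbit antibody against H3K9me3 and 1 without antibody, and the last was not analysed here. The sources used here give neither the age nor the number of the animals, nor how pure the cells were. The names of the lists pair each mark with the word negative. This is read as the library without antibody serving as control, although it could also stand for peaks called with precipitate and control exchanged.

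H3K4me3 is laid down by SET1 and MLL enzymes mainly at CpG-rich promoters of active or poised genes. H3K9me3 is laid down by SUV39H and SETDB1 enzymes, is bound by HP1 proteins and typically marks repeats and other heterochromatin. The ends of assembled mammalian chromosomes lie next to telomeres or centromeres, whose satellite and duplicated sequences are a classical site of H3K9me3 and are hard to assemble. Which kind of end each of these 15 starts is, and which genes lie there, was not examined, because no rn6 sequence or annotation was used here. For the same reason no gene is named, no sequence is shown, and the cell type could not be checked against promoters of marker genes.

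Each mark rests on 1 library, so no value has a replicate error and no test between conditions was possible. Intervals are at the 95% level, exact for peak numbers and their ratios and Wilson for shares. They cover only counting error, with each peak taken as independent, and since neighbouring peaks were a median of 3.31 kb apart for H3K9me3 and 17.6 kb for H3K4me3 in the first 3 Mb, they are too narrow. No test was run across the 15 chromosomes. The depth of the libraries is unknown.

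H3K9me3 peaks were denser in the first 3 Mb than in the rest of the same chromosomes. There were 26.3 peaks per Mb (24.9 to 27.9) in the first 3 Mb, against 14.9 per Mb (14.7 to 15.1) in the rest, a ratio of 1.77 (1.67 to 1.88). The peaks covered 3.31% of the first 3 Mb, against 1.81% of the rest. H3K4me3 showed a smaller excess, with 4.16 peaks per Mb (3.58 to 4.80) in the first 3 Mb, against 2.86 (2.78 to 2.94) in the rest, a ratio of 1.45 (1.25 to 1.68). Its peaks covered 0.432% of the first 3 Mb, against 0.326% of the rest.

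These pooled ratios did not describe a typical chromosome. For H3K9me3 the median ratio over the 15 chromosomes was 1.09, and the ratios ran from 0.366 on chromosome 17 to 5.61 on chromosome 5. On 10 chromosomes the first 3 Mb were denser than the rest and on 5 they were sparser. For H3K4me3 the median was 1.01, the range ran from 0.506 on chromosome 15 to 3.65 on chromosome 12, and 8 chromosomes had the denser start. By covered length, the first 3 Mb exceeded the rest on 7 of 15 chromosomes for either mark.

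**Figure D1:**
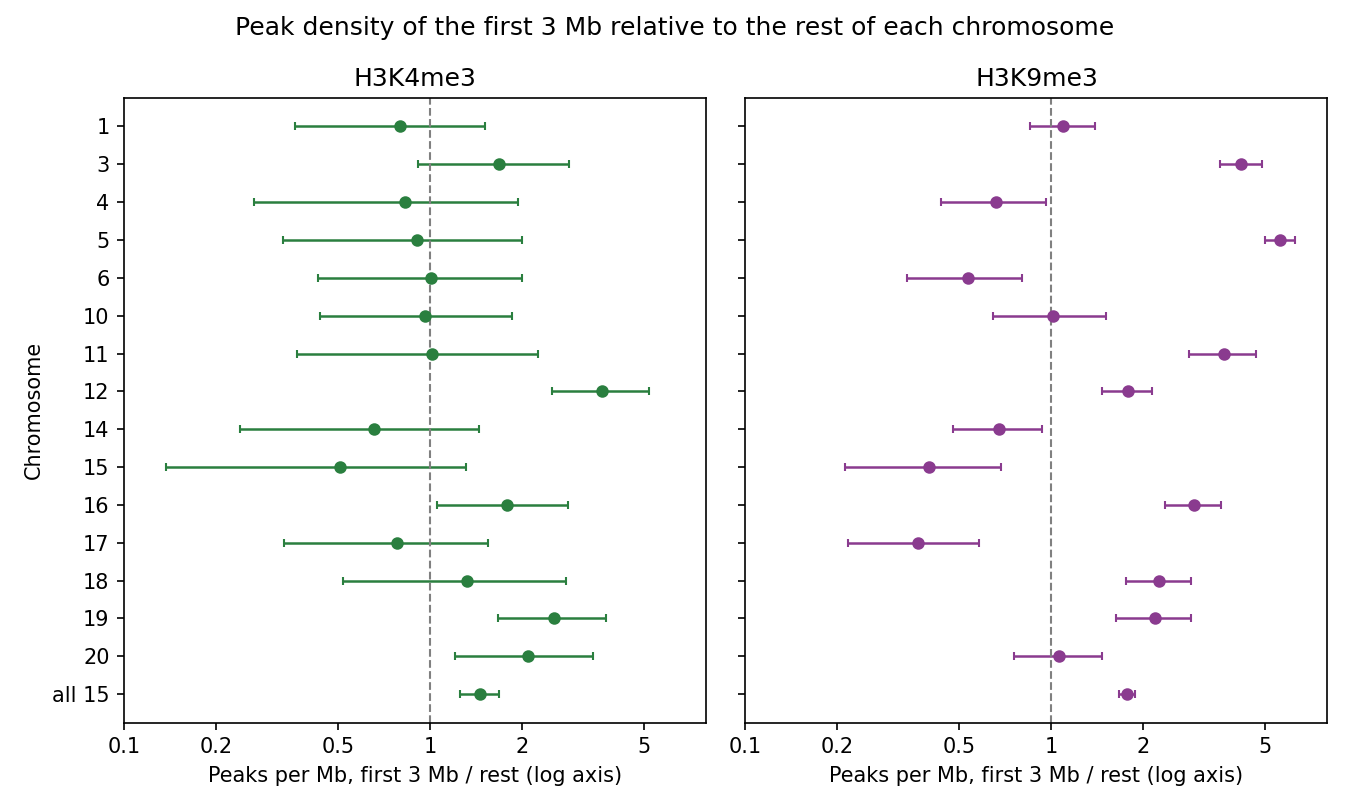
Peaks per Mb in the first 3 Mb divided by peaks per Mb in the rest of the same chromosome, on a log axis, for each of the 15 chromosomes and pooled; points are ratios, bars are exact 95% intervals from counting error, and the dashed line marks equal density. H3K9me3 spreads from 0.366 to 5.61 with most intervals clear of 1, whereas H3K4me3 intervals clear of 1 occur on chromosomes 12, 16, 19 and 20.

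For H3K9me3 the interval of the ratio lay above 1 on 7 chromosomes. Chromosome 5 led with 329 peaks in its first 3 Mb, or 110 per Mb, against 19.6 per Mb in the rest. Chromosome 3 followed with 171 peaks, 57.0 per Mb in the first 3 Mb and 13.7 per Mb in the rest, a ratio of 4.17 (3.55 to 4.87). The ratio was 3.66 (2.83 to 4.69) on chromosome 11 with 72 peaks and 2.93 (2.36 to 3.60) on chromosome 16 with 100 peaks. It was 2.26 (1.76 to 2.86) on chromosome 18 with 75 peaks, 2.18 (1.63 to 2.87) on chromosome 19 with 57 and 1.78 (1.47 to 2.13) on chromosome 12 with 129. Chromosomes 3 and 5 alone held 500 of the 1185 H3K9me3 peaks, and without them the pooled ratio was 1.21 (1.12 to 1.31) by number and 1.05 by covered length.

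On 5 chromosomes the start was sparser in H3K9me3 than the rest taken as a whole, with the interval of the ratio below 1. Chromosome 17 had 18 peaks in its first 3 Mb and a ratio of 0.366 (0.216 to 0.580), and chromosome 15 had 13 peaks and a ratio of 0.398 (0.211 to 0.683). The ratio was 0.532 (0.337 to 0.801) on chromosome 6 with 23 peaks, 0.661 (0.435 to 0.964) on chromosome 4 with 27 and 0.676 (0.477 to 0.931) on chromosome 14 with 38. Against the median 3-Mb window of the same chromosome, however, the starts of chromosomes 6, 4 and 14 were not poor. That window held 13 peaks on chromosome 6, 24 on chromosome 4 and 20 on chromosome 14. The starts of chromosomes 15 and 17 were poor by this measure too, with median windows of 22 and 24 peaks. The remaining 3, chromosomes 1, 10 and 20, had 69, 24 and 40 peaks, and their intervals included 1.

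For H3K4me3 the interval lay above 1 on 4 chromosomes and below 1 on none. Chromosome 12 had 39 peaks in its first 3 Mb, 13 per Mb against 3.56 per Mb in the rest, a ratio of 3.65 (2.51 to 5.19). Chromosome 19 had 29 peaks and a ratio of 2.55 (1.67 to 3.76), chromosome 20 had 18 and 2.09 (1.2 to 3.41), and chromosome 16 had 19 and 1.78 (1.06 to 2.82). The other 11 chromosomes had 4 to 14 H3K4me3 peaks each, and all their intervals included 1. Without chromosomes 12 and 19 the pooled ratio was 1.09 (0.898 to 1.30) by number and 0.987 by covered length, so the pooled H3K4me3 excess rested on these starts.

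The marks did not always go together. Both were denser than in the remainder on chromosomes 3, 11, 12, 16, 18, 19 and 20, and both were sparser on chromosomes 4, 14, 15 and 17. On chromosomes 1, 5 and 10 H3K9me3 alone was denser, and on chromosome 6 H3K4me3 alone was. Several of these directions lie within counting error, as on chromosome 6, where the H3K4me3 ratio was 1.01 (0.431 to 2.00). Chromosome 5 was the clearest split, with a ratio of 5.61 (4.99 to 6.28) for H3K9me3 and 0.908 (0.331 to 1.99) for H3K4me3.

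Within the first 3 Mb the peaks crowded towards the very start. The first 0.5 Mb, 16.7% of the length, held 448 of the 1185 H3K9me3 peaks (37.8%) and 85 of the 187 H3K4me3 peaks (45.5%). H3K9me3 stood there at 59.7 peaks per Mb (54.3 to 65.5), 4.02 times the density beyond 3 Mb (3.65 to 4.41). H3K4me3 stood at 11.3 per Mb (9.05 to 14), 3.96 times the density beyond 3 Mb (3.16 to 4.91). The 0.5-Mb step was chosen after the values were seen.

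The pooled H3K9me3 density then declined with distance to 3 Mb, whereas that of H3K4me3 was lowest between 1 and 2 Mb. From 0.5 to 1 Mb there were 41.5 H3K9me3 and 4.53 H3K4me3 peaks per Mb, from 1 to 2 Mb 21.2 and 1.40, and from 2 to 3 Mb 7.20 and 3.13. The stretch from 2 to 3 Mb was therefore below the remainder for H3K9me3, at 0.484 times its density (0.397 to 0.585). H3K4me3 between 1 and 2 Mb stood at 0.489 times the density of the remainder (0.303 to 0.749). Over all of 0.5 to 3 Mb, H3K4me3 stood at 0.95 times the remainder (0.774 to 1.16) and H3K9me3 at 1.32 times (1.23 to 1.42). This H3K9me3 value leaned on chromosome 5, which held 104 of 189 peaks from 1 to 1.5 Mb and 102 of 129 from 1.5 to 2 Mb. For H3K9me3, 6 of the 15 chromosomes were denser than their remainder from 0.5 to 3 Mb, and 3 from 1 to 2 Mb.

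**Figure D2:**
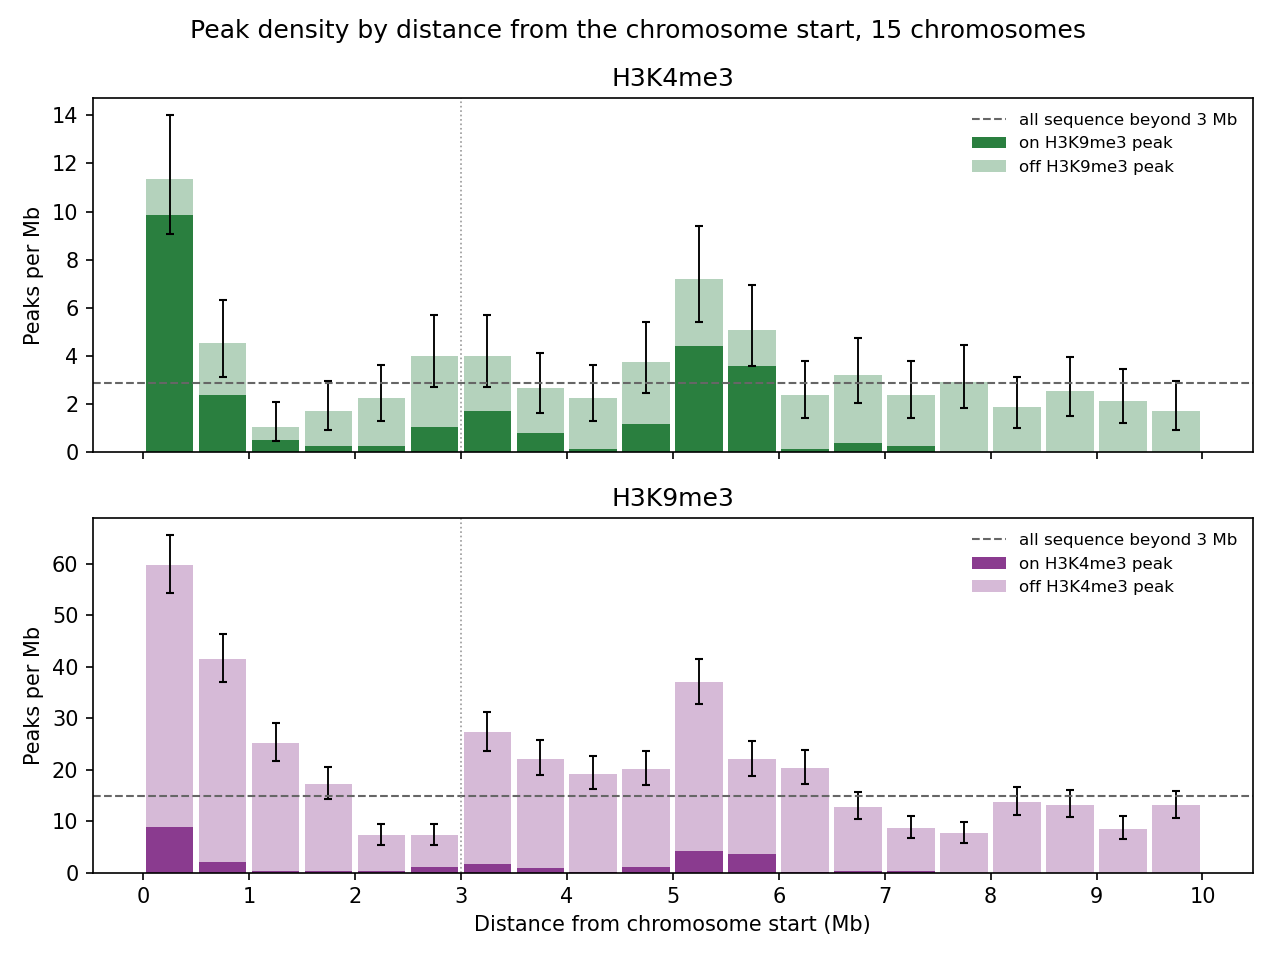
Peaks per Mb in steps of 0.5 Mb from the chromosome start to 10 Mb, pooled over the 15 chromosomes; dark bars are peaks that overlap a peak of the other mark, pale bars those that do not, error bars are 95% Poisson intervals of the total, the dashed line is the density of all sequence beyond 3 Mb and the dotted line is the 3-Mb limit. The first step reaches 11.3 for H3K4me3 and 59.7 for H3K9me3, and a second maximum of 7.20 and 36.9 lies between 5 and 5.5 Mb.

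All 15 chromosomes had at least 1 H3K9me3 peak in the first 0.5 Mb, and 12 of 15 were denser there than beyond 3 Mb. Chromosome 12 held 103 of the 448 peaks, and without it the ratio was 3.37 (3.03 to 3.75). For H3K4me3, 9 of 15 chromosomes were denser in the first 0.5 Mb and 2, chromosomes 1 and 14, had no peak there. Chromosomes 12 and 19 held 28 and 27 of the 85 peaks, and without both the ratio was 1.64 (1.11 to 2.35).

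The pooled H3K9me3 density, below the remainder from 2 to 3 Mb, was high again beyond 3 Mb, in part on other chromosomes. The next 3 Mb, from 3 to 6 Mb, listed 187 H3K4me3 peaks, the same number as the first 3 Mb (ratio 1, 0.812 to 1.23), and 1107 H3K9me3 peaks, against which the first 3 Mb had a ratio of 1.07 (0.985 to 1.16). In the next 3 Mb, chromosome 15 listed 69 of the H3K4me3 peaks, and chromosomes 12, 17 and 4 listed 324, 203 and 151 of the H3K9me3 peaks. Among the 7 chromosomes with H3K9me3 intervals above 1, only chromosome 12 listed more there than in its first 3 Mb. Chromosomes 3, 5, 11, 16, 18 and 19 listed 74, 17, 5, 7, 1 and 8. Of the 15 chromosomes, 9 had more H3K4me3 peaks in the first 3 Mb than in the next and 5 had fewer, and 8 had more H3K9me3 peaks and 7 had fewer. At the opposite ends, the last 3 Mb listed 392 H3K9me3 peaks and 131 H3K4me3 peaks. The first 3 Mb were denser than those ends by 3.02 times (2.69 to 3.40) for H3K9me3 and 1.43 times (1.14 to 1.80) for H3K4me3, with more H3K9me3 peaks on 11 chromosomes and fewer on 3, and more H3K4me3 peaks on 8 and fewer on 7. By covered length the H3K4me3 ratio was 1.2.

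Pooled, the starts of these 15 chromosomes were nonetheless much poorer in peaks than the starts of chromosomes 2, 7, 8, 9 and 13. Peak groups near the starts of those 5 form separate parts of the series. The difference therefore follows at least in part from the choice of chromosomes. H3K9me3 stood at 26.3 peaks per Mb in the 15, against 119.7 per Mb in those 5, a ratio of 0.220 (0.204 to 0.237). H3K4me3 stood at 4.16 against 11.8 per Mb, a ratio of 0.352 (0.285 to 0.435). The H3K4me3 peaks were uneven among the 5: chromosomes 7 and 2 held 97 and 57 of the 177, and chromosome 9 held 21. Chromosomes 8 and 13 had 1 each, fewer than any of the 15, whose lowest number was 4 on chromosome 15. For H3K9me3 those 5 ranged from 31 peaks on chromosome 9 to 528 on chromosome 8. Chromosome 5, with 329, lay above chromosome 7, with 277. The other 14 lay below 4 of the 5, and chromosomes 4, 6, 10, 15 and 17 lay below chromosome 9 as well.

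**Figure D3:**
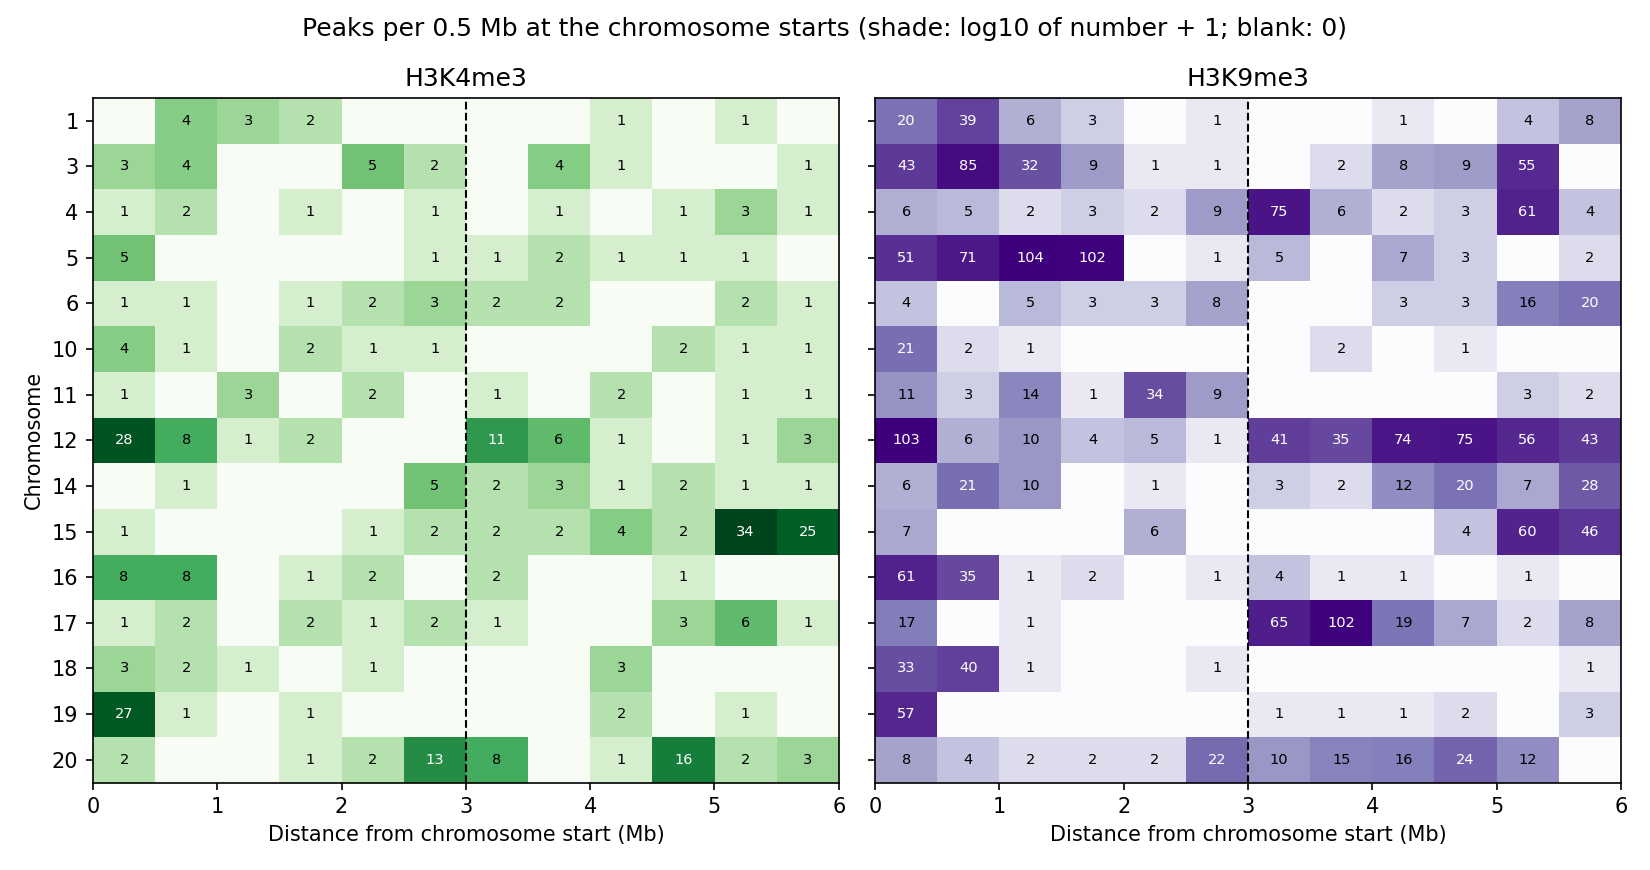
Number of listed peaks in each 0.5 Mb from the chromosome start to 6 Mb, one line per chromosome, with the number printed and the shade on a log10 scale; the dashed line is the 3-Mb limit. H3K9me3 is crowded in the first 2 Mb of chromosome 5, the first 1.5 Mb of chromosome 3 and the first 1 Mb of chromosomes 16 and 18. H3K4me3 is crowded in the first 0.5 Mb of chromosomes 12 and 19, with 28 and 27 peaks.

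The H3K9me3 starts ended abruptly on several chromosomes. On chromosome 5, 328 of the 329 peaks lay in the first 2 Mb and covered 26.6% of it, and the next peak after 1.97 Mb was at 2.52 Mb. On chromosome 3, 169 of 171 peaks lay in the first 2 Mb and covered 11.7% of it, but they thinned gradually, to 9 between 1.5 and 2 Mb. On chromosome 16, 96 of 100 peaks lay in the first 1 Mb and covered 11.2%, and on chromosome 18, 73 of 75 did so and covered 7.98%. All 57 peaks of chromosome 19 lay in the first 0.5 Mb, where they covered 10.2%, and chromosome 10 had 21 of its 24 there.

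Other starts followed a different layout. Chromosome 11 had its largest group away from the start, with 34 of its 72 H3K9me3 peaks between 2 and 2.5 Mb. Chromosome 20 had 22 of 40 H3K9me3 peaks and 13 of 18 H3K4me3 peaks between 2.5 and 3 Mb, a group that ran on past the 3-Mb limit with 10 and 8 peaks in the next 0.5 Mb. On chromosome 17, 17 of the 18 H3K9me3 peaks lay in the first 0.5 Mb, and after 1 more peak at 1.08 Mb the sequence beyond the limit, from 3 to 4 Mb, listed 167. On chromosome 4 the 27 peaks of the first 3 Mb were followed by 75 between 3 and 3.5 Mb.

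The limit thus cut through groups of peaks on some chromosomes. The last H3K4me3 peaks inside it were chr20:2983639-2984073 with a score of 37.0 and chr20:2988090-2988930 with 59.8. The first outside were chr20:3003494-3004620 with 59.3 and chr16:3051392-3052729 with 61.1. For H3K9me3 the last inside were chr20:2987983-2988770 with 32.7 and chr4:2990501-2993861 with 281, and the first outside were chr20:3003996-3004575 with 38.4 and chr17:3010315-3010932 with 30.8. The score is the authors' own value per peak, has no stated unit and was 30 at the lowest in both lists.

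When each chromosome was cut into whole 3-Mb windows, the first window held more H3K9me3 peaks than the median window of its chromosome on 13 of 15 chromosomes and fewer on 2. For H3K4me3 it held more on 11, as many on 2 and fewer on 2. The first window ranked first for H3K9me3 on chromosome 11 alone, with 72 peaks against a median of 13.5 over its 30 windows. It ranked 2 of 57 on chromosome 5, where the densest window held 336, and shared rank 2 of 59 on chromosome 3, where the densest held 327. It ranked 4 on chromosomes 12, 16, 18 and 19, out of 17, 30, 29 and 20 windows. At the other end it ranked 23 of 36 on chromosome 15, with 13 peaks against a median of 22, and 18 of 29 on chromosome 17, with 18 against 24, each sharing its rank. For H3K4me3 the first window ranked first on chromosome 12, with 39 peaks against a median of 9, rank 2 of 18 on chromosome 20, rank 3 of 20 on chromosome 19 and shared rank 3 of 30 on chromosome 16. It shared rank 34 of 61 on chromosome 4 and rank 21 of 36 on chromosome 15.

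At the scale of 100 kb the peaks were sparse with a few crowded places. Of the 450 bins of 100 kb that make up the first 3 Mb, 280 held no H3K9me3 peak and 362 no H3K4me3 peak, and 45 held both. The 45 fullest bins held 75.8% of the H3K9me3 and 82.1% of the H3K4me3 covered length. The 5 fullest H3K9me3 bins were all on chromosome 5, starting at 0.9, 1.7, 1.2, 1.6 and 1.5 Mb, and were covered to 52.8%, 50.3%, 50.1%, 48.9% and 44.2%. None of these 5 bins held an H3K4me3 peak.

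The fullest H3K4me3 bins looked different, because H3K9me3 lay in each of them too. The first 0.1 Mb of chromosome 12 was covered to 13.9% by 14 H3K4me3 peaks, and 27 H3K9me3 peaks covered 35.8% of it. On chromosome 19 the bins from 0.4 and 0.3 Mb held 8 and 14 H3K4me3 peaks over 11.4 and 10.4 kb, beside 9 and 23 H3K9me3 peaks. The bin from 2.5 Mb of chromosome 20 held 8 H3K4me3 and 7 H3K9me3 peaks, and that from 0.8 Mb of chromosome 3 held 4 and 15.

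H3K4me3 peaks at the starts lay on H3K9me3 peaks more often than those in the whole remainder of the same chromosomes. Of the 187, 108 overlapped an H3K9me3 peak by at least 1 bp (57.8%, 50.6 to 64.6%), against 1450 of 5121 in the rest (28.3%, 27.1 to 29.6%). The share was higher at the start on 11 of the 15 chromosomes. It was not particular to these starts: in the next 3 Mb it was 47.6% (40.6 to 54.7%), an interval that overlaps that of the first 3 Mb. The share in the next 3 Mb rested mostly on 57 of 59 peaks between 5 and 6 Mb of chromosome 15 and 19 of 22 on chromosome 12. At the starts of chromosomes 2, 7, 8, 9 and 13 the share was 90.4% (85.2 to 93.9%), and chromosomes 2 and 7 held 57 and 97 of those 177 peaks. In the first 0.5 Mb of the 15 chromosomes, 74 of 85 lay on H3K9me3 (87.1%, 78.3 to 92.6%), or 21 of 30 without chromosomes 12 and 19 (70.0%, 52.1 to 83.3%). From 0.5 to 1 Mb 18 of 34 did (52.9%, 36.7 to 68.5%), and from 2 to 3 Mb 10 of 47 (21.3%, 12 to 34.9%). Beyond the limit the share did not change steadily with distance. It was 43.3% between 3 and 3.5 Mb, 5.88% between 4 and 4.5 Mb, 61.1% between 5 and 5.5 Mb and 71.1% between 5.5 and 6 Mb. In the stretch from 7.5 to 10 Mb, picked after the values were seen, none of 84 overlapped (0%, upper bound 4.37%). H3K9me3 peaks also covered more sequence near the start, 6.87% of the first 0.5 Mb and 5.37% of the next, against 1.81% beyond 3 Mb, and the part of this in the shares was not tested. Both lists may also share 1 control library, and its part was not tested either.

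Split in this way, the H3K4me3 excess lay in the peaks on H3K9me3. Those on H3K9me3 stood at 2.40 per Mb in the first 3 Mb, against 0.810 per Mb in the rest, a ratio of 2.96 (2.41 to 3.60), or 1.74 (1.30 to 2.29) without chromosomes 12 and 19. Those off H3K9me3 stood at 1.76 per Mb, against 2.05 per Mb, a ratio of 0.856 (0.676 to 1.07). In the first 0.5 Mb the ratios were 12.2 (9.51 to 15.4) for peaks on H3K9me3 and 0.715 (0.357 to 1.28) for peaks off it. Chromosomes 12 and 19 supplied 27 and 26 of the 74 peaks on H3K9me3 there, and without them the ratios were 4.14 (2.56 to 6.36) and 0.683 (0.312 to 1.30). The peaks off H3K9me3 numbered 2 to 10 per chromosome, and the interval of their ratio included 1 on each of the 15.

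**Figure D4:**
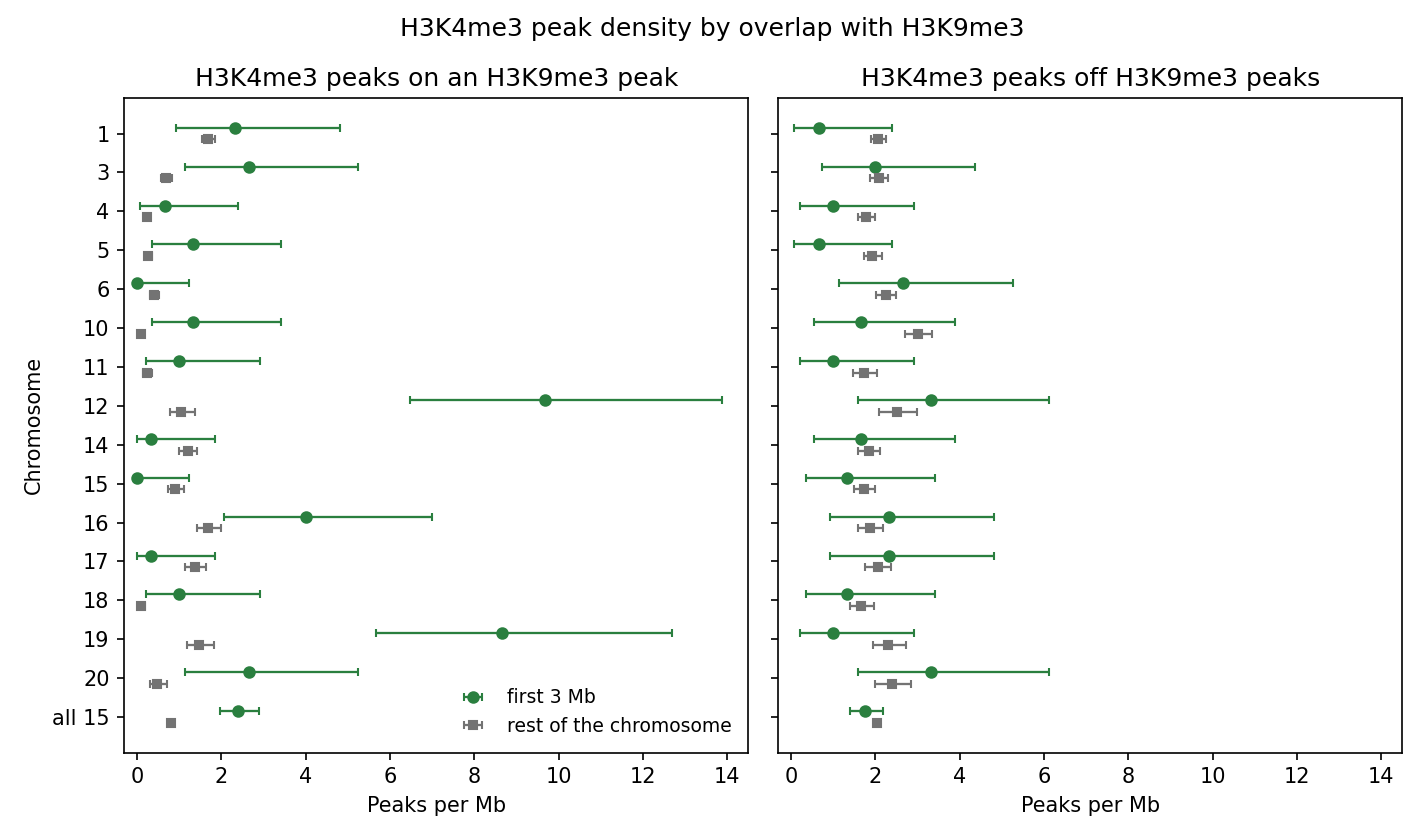
H3K4me3 peaks per Mb in the first 3 Mb (green circles) and in the rest of the same chromosome (grey squares), for peaks that overlap an H3K9me3 peak (left) and peaks that do not (right), with 95% Poisson intervals. On the left, chromosomes 12 and 19 stand out at 9.67 and 8.67 per Mb in the first 3 Mb, and on the right all 15 chromosomes lie between 0.667 and 3.33.

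Among the peaks on H3K9me3, chromosomes 12 and 19 supplied 29 and 26 of the 108, and chromosome 16 supplied 12. On chromosome 19, 26 of 29 H3K4me3 peaks lay on H3K9me3 (89.7%), against 39.1% in the rest of that chromosome. On chromosome 12, 29 of 39 did (74.4%), against 29.4%. Chromosome 10 showed the largest ratio, 13.3 (3.09 to 44.8), from 4 peaks in the first 3 Mb and 11 in the whole remainder. On chromosomes 6 and 15 none of the 8 and 4 H3K4me3 peaks lay on H3K9me3. Without chromosomes 12 and 19 the share was 44.5% (35.9 to 53.5%), against 27.8% (26.5 to 29.1%) in the rest of the 13 chromosomes left.

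Seen from the other mark, 97 of the 1185 H3K9me3 peaks lay on an H3K4me3 peak (8.19%, 6.76 to 9.88%), against 1342 of 26619 in the rest (5.04%, 4.79 to 5.31%). Chromosomes 12 and 19 supplied 25 each, and without them the shares were 4.70% (3.56 to 6.20%) and 4.83% (4.57 to 5.10%), and these intervals overlap. On chromosome 5 only 3 of 329 did so (0.912%). The pooled share of 8.19% was not particular to these starts. It was 7.86% (6.42 to 9.59%) in the next 3 Mb and 8.67% (6.27 to 11.9%) in the last 3 Mb. At the starts of chromosomes 2, 7, 8, 9 and 13 it was 7.18% (6.08 to 8.47%). H3K9me3 peaks off H3K4me3 still stood at 24.2 per Mb in the first 3 Mb, against 14.1 per Mb, a ratio of 1.71 (1.61 to 1.82).

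Single peaks at the starts had widths close to those elsewhere. H3K4me3 peaks had a median width of 838 bp in the first 3 Mb, with quartiles of 679 and 1146 bp, against 890.0 bp (685 and 1307 bp) in the rest. For H3K9me3 it was 908 bp (662 and 1427 bp), against 886 bp (670.0 and 1355 bp). Peaks over 5 kb numbered 15 of 1185 for H3K9me3 (1.27%, 0.769 to 2.08%), against 339 of 26619 (1.27%, 1.15 to 1.42%), and 10 of the 15 were on chromosome 5. No H3K4me3 peak at the starts exceeded 5 kb, against 25 of 5121 in the rest.

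Scores of H3K9me3 peaks were higher at the starts than in the whole remainder, but this was not particular to these starts. The median was 62.75 in the next 3 Mb, 47.5 in the last 3 Mb and 91.8 at the starts of chromosomes 2, 7, 8, 9 and 13. In the first 3 Mb of the 15 chromosomes the median was 64.85, with quartiles of 40.9 and 133, against 55.4 (37.8 and 105) in the rest. There 54.2% (51.3 to 57.0%) reached the median score of the whole list, against 45.4% (44.8 to 46.0%) in the rest. For H3K4me3 the median was 51.6 (38.1 and 87.4), against 48.7 (35.1 and 90.5), and 52.9% (45.8 to 60.0%) reached the list median, against 49.0% (47.7 to 50.4%), a difference within the intervals. The median was higher at the start on 9 of the 15 chromosomes for either mark. Among H3K9me3 peaks it was 110 on chromosome 12, against 56.1 in its remainder, and 74.45 on chromosome 5, against 54.9.

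Peaks that carried both marks also had the higher scores. H3K9me3 peaks on H3K4me3 had a median score of 239 in the first 3 Mb, against 260.1 in the rest, and those off it 62.8 against 53.3. H3K4me3 peaks on H3K9me3 had 56.9 in the first 3 Mb, against 71.4 in the rest, and those off it 45.3 against 43.7. Of the H3K4me3 peaks at or above the list median, 65 of 99 at the starts lay on H3K9me3 (65.7%, 55.9 to 74.3%), against 973 of 2511 in the rest (38.7%, 36.9 to 40.7%). Below the list median it was 43 of 88 (48.9%, 38.7 to 59.1%), against 477 of 2610 (18.3%, 16.8 to 19.8%), so the higher share at the starts held in both score classes.

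Of the highest-scoring peaks at the starts, 7 of the top 10 H3K4me3 and 7 of the top 10 H3K9me3 peaks lay on a peak of the other mark. Over all peaks at the starts this share was 57.8% for H3K4me3 and 8.19% for H3K9me3. Among those at or above the list median it was 65.7% and 12.5%. The H3K4me3 count was thus near its share, and only the H3K9me3 count lay well above. Peaks of both marks with a score of 3100 lay at 2 places. On chromosome 12 these were chr12:1508767-1511003 for H3K4me3 and chr12:1508635-1511335 for H3K9me3. On chromosome 3 they were chr3:41417-42486 for H3K4me3 and chr3:41417-42335 for H3K9me3, which began at the same base. Exactly 3100 was also the highest score of both marks from 3 to 6 Mb of chromosome 12. Elsewhere scores reached 3198 in the H3K4me3 list and 3217 in the H3K9me3 list. Why the value 3100 recurs was not tested, so these equal scores need not mean equal strength. Next came chr12:465996-466813, where H3K4me3 scored 1532 and the H3K9me3 peak over it, chr12:465975-467101, scored 2968. Beside the first place, H3K4me3 at chr12:1511832-1512868 scored 705 and H3K9me3 at chr12:1511701-1512635 scored 1876.

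The remaining shared H3K4me3 peaks of the top 10 were on chromosomes 12 and 19. On chromosome 19, chr19:459761-462953 scored 1827 over 3193 bp, with an H3K9me3 score of 266, and its neighbour chr19:455649-459702 scored 320 over 4054 bp, with H3K9me3 scores of at most 32.6. The last of the group, chr12:479736-480703, scored 367, with 975 for H3K9me3.

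Among H3K4me3 peaks off H3K9me3, the highest scores belonged to peaks well above the median width. They were chr19:1532763-1537357 with 782 over 4595 bp, chr14:2931745-2934909 with 423 over 3165 bp and chr15:277089-279735 with 340 over 2647 bp. The next were chr6:2885593-2888092 with 206 and chr20:2086054-2088471 with 199. These 5 lay on 5 different chromosomes.

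The strongest H3K9me3 peaks without H3K4me3 were mostly on chromosome 5. The first 3 were also the widest peaks at any of these starts: chr5:1639226-1650876 with a score of 1735 over 11651 bp, chr5:363210-372518 with 1416 over 9309 bp and chr5:347540-356458 with 1238 over 8919 bp. Outside the top 10, and named after their values were seen, chr14:729222-735111 followed with 1230 and chr5:452909-458835 with 976. Wide H3K9me3 peaks of chromosomes 3 and 12 did carry H3K4me3. Of these, chr3:865422-873585 scored 2165 and met 2 H3K4me3 peaks, its neighbour chr3:860490-865392 scored 1596 and met 2, and chr12:38000-43628 scored 1709 and met 3.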

How the data were processed

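Coordinates are those of rn6, and Bowtie 1.2, FastQC and bcl2fastq are named without their roles, both per the submitters' processing notes. Reads were 75 bp paired ends, per the labels' protocols. Peaks carry MACS names in the files. Settings of mapping and calling, and the handling of duplicates and of reads that match several places, are not stated there. The deposited lists give positions and the authors' score for each peak, whose unit no header states. Scores served only to order or select peaks of the same list.

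Peaks with a midpoint below 3000000 were compared with the rest of the same chromosome, whose end was the largest peak end in either list. Starts are counted from 1. Ratios of peak density have exact conditional intervals. Alternatives varied the score minimum, the limit, the comparison sequence, the overlap rule and the chromosomes. The calculation was tested on simulated data. The rule for named regions gave the 10 highest scores per mark, the 5 highest H3K4me3 peaks off H3K9me3 and the 5 fullest 100-kb bins. The members and rules were chosen with earlier results of these data known. Calculations ran in Python 3.11.15 with scipy 1.17.1, pandas 2.3.3 and numpy 2.4.6, and plots in matplotlib 3.10.9.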

Additional observations from a re-analysis of the deposited data

How the results depend on the processing

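The density ratio of H3K9me3, 1.77, was 2.11 when peaks scoring under their list's median were dropped, 2.42 for the first 2 Mb and 3.02 against the last 3 Mb. The ratio of covered length, 1.82, was 2.01, 2.55 and 3.76 under the same settings. Against the next 3 Mb the density ratios were 1.07 for H3K9me3 and 1 for H3K4me3, and the covered length ratios 1.06 and 0.968. For the first 0.5 Mb the density ratios were 4.02 for H3K9me3 and 3.96 for H3K4me3, with covered length ratios of 3.79 and 3.26, and for 0.5 to 3 Mb they were 1.32 and 0.95, with 1.43 and 0.936. The H3K4me3 ratios thus passed below 1 against the next 3 Mb, for covered length, and between 0.5 and 3 Mb. Without chromosomes 3 and 5 the H3K9me3 density ratio was 1.21, and without chromosomes 12 and 19 the H3K4me3 ratio was 1.09. The 0.5-Mb steps and both of these omissions were added after the data were seen. The share of H3K4me3 peaks on H3K9me3 was 70.0% in the first 2 Mb and 48.6% in the first 5 Mb. The share of H3K9me3 peaks on H3K4me3 was 11.3% when a gap of up to 1 kb counted. Leaving out each chromosome in turn gave 1.42 to 1.93 for the H3K9me3 and 1.24 to 1.57 for the H3K4me3 density ratio, 1.30 to 2.08 and 1.14 to 1.47 for covered length, 51.9 to 60.3% and 6.38 to 11% for the shares on the other mark, and 9 to 10 and 7 to 8 chromosomes with the denser start. Counting the span from the first peak gave density ratios of 1.83 for H3K9me3 and 1.5 for H3K4me3, and requiring overlap of 0.5 of the smaller peak gave shares of 8.10% and 56.7%. Under the alternatives other than the 0.5-Mb steps, 8 to 11 chromosomes had the denser start for H3K9me3 and 7 to 9 for H3K4me3. In the first 0.5 Mb it was 12 and 9, and from 0.5 to 3 Mb 6 and 6. The causes of these shifts were not tested. No paired analysis was possible because each mark has 1 library. Depth is unknown, so a region without a peak may lie under the detection limit.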
